A study of Mus musculus with 6 samples.

Results

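Kinesins are motor proteins that use ATP to move along microtubules or to take them apart. The genes described here are those whose symbol in the authors' RNA-seq table of mouse embryos begins with *Kif* and a digit, which gave 38 of the 24207 loci listed. Whole male embryos were dissected at E9.5, when the neural tube forms its first neurons while most cells still divide. There were 3 Smchd1+/+ embryos and 3 Smchd1MommeD1/MommeD1 embryos, which are homozygous for a nonsense mutation of *Smchd1* that arose in an ENU mutagenesis screen, and the labels name no agent for either group. Parents of both groups were heterozygous for the mutation. The strains in the sample labels are C57Bl6/J and FVB/n, whereas the text of the study names a backcross to a 129 T2/SvEms background, and the effect of strain was not tested.

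The values are FPKM, the fragments mapped to a transcript scaled by its length and by all mapped fragments, so levels can be compared between genes. The authors' table holds 1 value per genotype, pooled over its embryos. No value per embryo was used, so there is no error between embryos to give, no test between genotypes was computed from these pooled values, and the depth of the libraries is unknown. The authors' own test of the genotypes is in the same table and was not used. In place of an error, each gene is set beside the 1000 loci nearest to it in mean FPKM, which shows how far loci of like level differed between the pooled values. Log2 ratios are mutant over wildtype with 0.1 FPKM added to each value, which understates the difference of low genes. *Smchd1* itself was at 2.12 FPKM in Smchd1MommeD1/MommeD1 embryos against 34.0 FPKM in Smchd1+/+ embryos.

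Kinesins fall into groups by what they carry. Mitotic kinesins build and shorten the spindle, move chromosomes and complete cytokinesis, and their transcripts peak late in the cell cycle. Transport kinesins carry vesicles, mitochondria and protein complexes, and some of them are made mainly in neurons, where cargo has to travel along the axon. A smaller group serves the primary cilium, on which Hedgehog signaling depends. By their textbook roles, 12 of the 38 genes were taken as mitotic, 13 as transport kinesins (7 enriched in neurons and 6 widely expressed) and 8 as cilium kinesins, and 5 were left as other. The groups were drawn up with earlier results of these data known. A mean of 1 FPKM over the genotypes was reached by 30 of them, namely 11 mitotic, 12 transport, 4 cilium and 3 other kinesins.

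The neuron-enriched transport kinesins were all higher in Smchd1MommeD1/MommeD1 embryos, whereas the mitotic kinesins had ratios near 0 or somewhat below. The median log2 ratio was 0.39 for the 6 neuron-enriched members and -0.078 for the 11 mitotic members, beside -0.0076 for all 12463 loci whose mean reached 1 FPKM. The 6 widely expressed transport kinesins had a median of 0.0065, and the 4 cilium kinesins a median of 0.0011. With both kinds of transport kinesin together the median was 0.15, and the median of the mitotic kinesins lay 0.23 below it. These differences are small beside the median log2 ratio of 1.14 over the 13 neuron markers that reached 1 FPKM. The ratios of those markers ran from 0.34 to 1.67, so the lowest overlap those of the neuron-enriched kinesins. *Tubb3*, among the higher of the markers, was at 99.9 and 37.0 FPKM.

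At a fold of at least 1.5, 1 kinesin of 30 (*Kif5a*) was higher in mutant embryos, where 3.51% of all loci were, and 0 were lower, where 1.47% of all loci were. Those counts are near the background and show nothing particular to kinesins. With a difference of at least 25% of the lower value, 4 of the 30 were higher, against 8.84% of all loci, and 0 were lower, against 4.98% of all loci. Such small counts do not set kinesins apart from all loci either. All 4 were among the 6 neuron-enriched transport kinesins (*Kif5a*, *Kif1a*, *Kif3c* and *Kif5c*). The shares of all loci cover every level, whereas loci of low level scattered more widely. Each of the 4 lay inside the central 95% of the loci nearest to it in level. In plain direction, 17 kinesins were higher and 13 lower, while 48.2% of all loci were higher and 51.8% lower. Of these, *Kif2c*, *Kif3b*, *Kif4* and *Kif7* were within 0.01 of 0 on the log2 scale and changed side under other scalings.

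**Figure D1:**
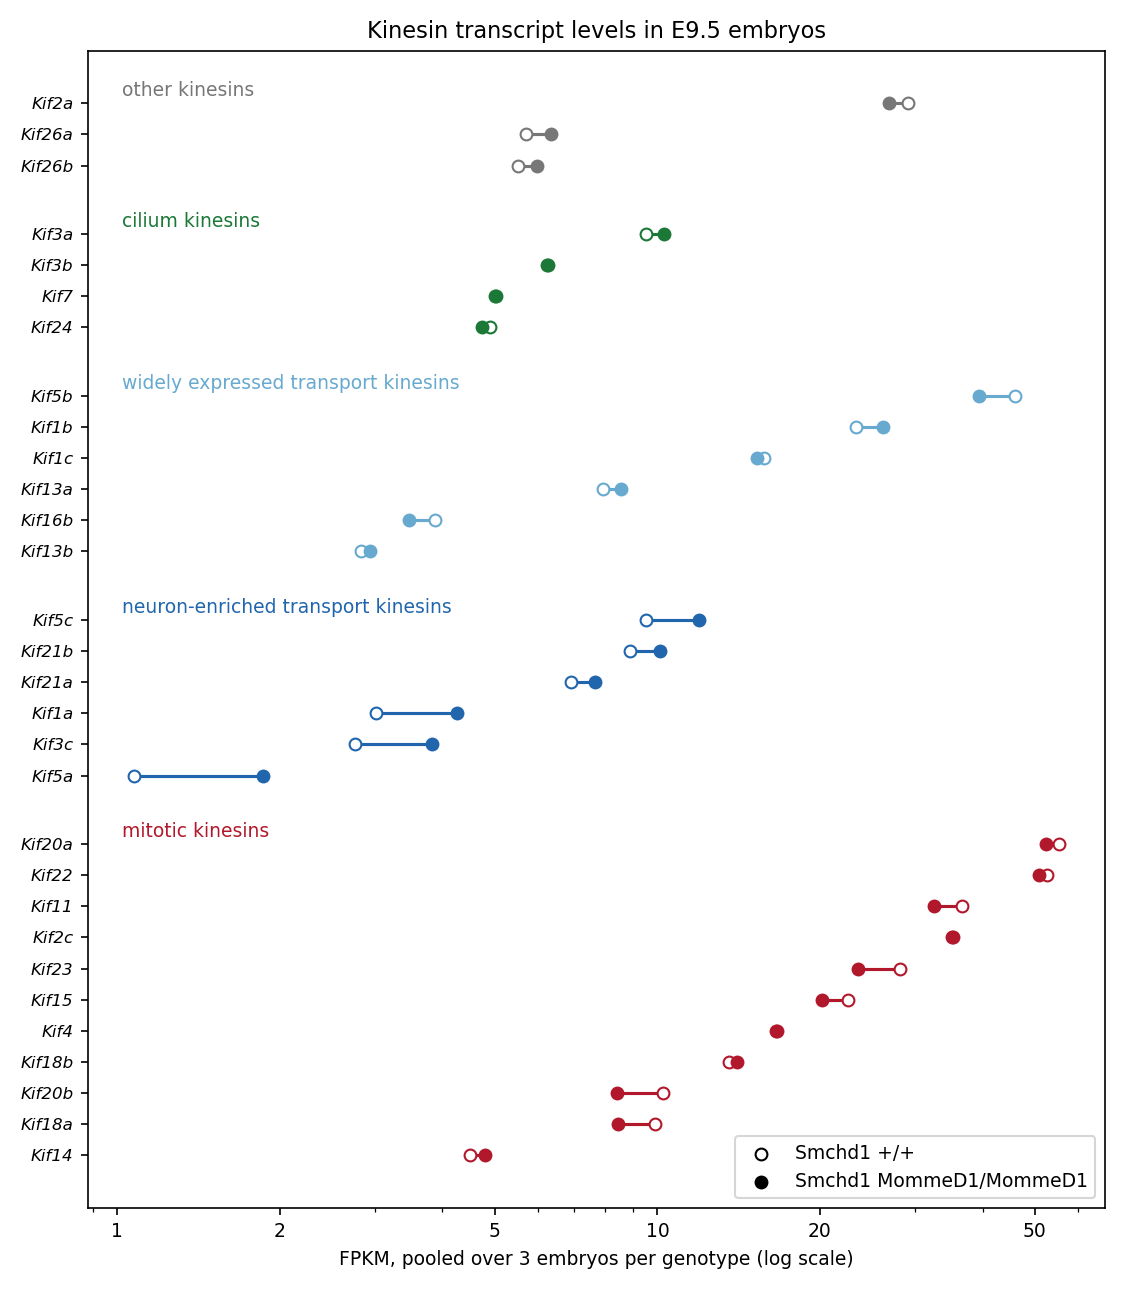
FPKM of each kinesin whose mean reached 1 FPKM, on a log axis, as an open circle for Smchd1+/+ and a filled circle for Smchd1MommeD1/MommeD1 embryos, each 1 value pooled over 3 embryos. Filled circles lie to the right of the open ones for all 6 neuron-enriched transport kinesins, and *Kif20a* and *Kif22* have the highest levels.

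Mitotic kinesins made up most kinesin transcripts at this stage, 58.8% of the summed kinesin FPKM in wildtype and 56.9% in mutant embryos. *Kif20a*, which is needed for cytokinesis and carries the chromosomal passenger complex to the spindle midzone, was at 52.4 FPKM in mutant embryos against 55.3 FPKM in wildtype embryos. *Kif22*, a chromosome-binding motor that pushes chromosome arms away from the pole, was at 51.0 and 52.7 FPKM. *Kif2c*, which takes microtubules apart at their ends to correct faulty kinetochore attachment, was at 35.3 and 35.1 FPKM. Each of these 3 differed between genotypes by less than 0.08 on the log2 scale. *Kif4*, the chromosome-bound motor that shortens the midzone and the 1 kinesin on the X chromosome, was at 16.7 and 16.6 FPKM. *Kif18b*, which trims astral microtubules, was at 14.1 and 13.6 FPKM, and *Kif14*, a cytokinesis motor, was the least abundant at 4.80 and 4.50 FPKM. These 3 had log2 ratios of 0.0063 to 0.090.

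A further 5 mitotic kinesins were lower in Smchd1MommeD1/MommeD1 embryos by 0.16 to 0.29 on the log2 scale. *Kif11*, the motor that pushes spindle poles apart, was at 32.5 FPKM in mutant embryos against 36.7 FPKM in wildtype embryos, a log2 ratio of -0.18. *Kif15*, which holds the poles apart together with *Kif11*, was at 20.2 and 22.5 FPKM, a log2 ratio of -0.16. *Kif18a*, which damps chromosome movement at the metaphase plate, was at 8.45 and 9.90 FPKM, a log2 ratio of -0.23. The lowest ratios belonged to *Kif20b* and *Kif23*. *Kif20b*, which acts in the last step of cytokinesis, was at 8.40 and 10.3 FPKM, a log2 ratio of -0.29. *Kif23*, the motor subunit of centralspindlin, which bundles midzone microtubules and positions the cleavage furrow, was at 23.5 and 28.2 FPKM, a log2 ratio of -0.26. Among the 1000 loci nearest in level, 4.50% had a ratio as low as that of *Kif23* and 6.40% one as low as that of *Kif20b*, so neither stood outside the range of loci of like level. *Kif2b* was listed at 0 in both genotypes.

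Genes of cell division are often switched on together by short promoter motifs. The cell cycle homology region (CHR), with the core TTTGAA, binds complexes that contain MuvB, and the CCAAT box binds NF-Y. To show what the mitotic kinesins share beyond their function, RefSeq promoter windows of build GRCm38.p6 were searched for these letters on both strands, each motif on its own so that matches could overlap. A window runs from 250 bases before to 50 bases after an annotated start, and 31 of the 38 kinesins had 35 windows. The 11 mitotic windows belong to 11 of the 12 listed mitotic kinesins. They include that of *Kif2b*, which was at 0 FPKM, so they are not the same 11 genes that reached 1 FPKM. TTTGAA was found in 9 of 11 mitotic windows, against 17.9% of all 32851 windows, and in 1 of 11 windows of transport kinesins. CCAAT was found in 7 of 11 mitotic windows, against 37.4% of all windows, and in 5 of 8 windows of cilium kinesins. This motif was thus about as frequent in cilium as in mitotic kinesins. It was found in 2 of 11 windows of transport kinesins, both of them windows of *Kif1b*. Windows of 1 gene can overlap, and the 11 transport windows came from 9 genes. Both motifs were present in 6 of 11 mitotic windows (those of *Kif11*, *Kif14*, *Kif18b*, *Kif22*, *Kif23* and *Kif4*), against 6.95% of all windows, and in 0 of 11 windows of transport kinesins.

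In 7 of the 11 mitotic windows a TTTGAA began within 50 bases of the annotated start, against 4.94% of all windows, a span that was chosen after the positions were seen. The same held for 1 of 11 windows of transport kinesins, that of *Kif1a*, and for *Kif26b* among the other kinesins. The windows of *Kif11* (chr19:37376132-37376431, plus strand), *Kif23* (chr9:61946750-61947049, minus strand) and *Kif22* (chr7:127042371-127042670, minus strand) are shown as mitotic kinesins that carry both motifs. Those of *Kif5c* (chr2:49619036-49619335, plus strand) and *Kif3c* (chr12:3364882-3365181, plus strand) are shown as neuron-enriched transport kinesins that carry neither. Each is given from 5′ to 3′ on the strand of the gene, and capitals mark a match to TTTGAA or CCAAT or to their complements TTCAAA and ATTGG.
Kif11: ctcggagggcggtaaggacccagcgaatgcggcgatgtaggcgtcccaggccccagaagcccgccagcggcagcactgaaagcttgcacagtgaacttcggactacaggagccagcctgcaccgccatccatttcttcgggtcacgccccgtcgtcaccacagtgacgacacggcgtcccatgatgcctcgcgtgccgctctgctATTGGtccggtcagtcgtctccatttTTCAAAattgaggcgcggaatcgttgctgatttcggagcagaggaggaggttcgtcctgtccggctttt
Kif23: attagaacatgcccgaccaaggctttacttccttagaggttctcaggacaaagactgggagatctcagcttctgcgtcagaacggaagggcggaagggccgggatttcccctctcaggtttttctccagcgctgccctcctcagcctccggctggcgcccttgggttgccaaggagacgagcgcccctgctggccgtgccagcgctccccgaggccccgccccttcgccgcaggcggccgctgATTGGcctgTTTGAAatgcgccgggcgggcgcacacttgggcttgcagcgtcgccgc
Kif22: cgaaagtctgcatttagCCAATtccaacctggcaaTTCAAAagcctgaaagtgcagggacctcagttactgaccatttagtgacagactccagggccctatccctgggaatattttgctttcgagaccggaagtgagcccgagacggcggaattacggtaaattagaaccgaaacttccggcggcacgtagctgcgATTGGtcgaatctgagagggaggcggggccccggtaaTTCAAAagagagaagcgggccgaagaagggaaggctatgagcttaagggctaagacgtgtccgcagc
Kif5c: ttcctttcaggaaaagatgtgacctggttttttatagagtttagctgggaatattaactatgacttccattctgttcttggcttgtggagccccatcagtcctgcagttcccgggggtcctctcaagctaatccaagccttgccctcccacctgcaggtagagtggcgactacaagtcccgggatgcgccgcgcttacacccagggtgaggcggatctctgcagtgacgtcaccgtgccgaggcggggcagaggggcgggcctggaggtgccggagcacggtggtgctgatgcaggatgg
Kif3c: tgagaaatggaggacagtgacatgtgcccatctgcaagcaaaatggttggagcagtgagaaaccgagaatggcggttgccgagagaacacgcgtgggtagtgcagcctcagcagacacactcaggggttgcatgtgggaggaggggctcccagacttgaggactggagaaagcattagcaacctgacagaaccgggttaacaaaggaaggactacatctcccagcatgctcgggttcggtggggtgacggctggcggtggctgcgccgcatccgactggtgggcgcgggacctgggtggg

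In *Kif11* the NF-Y box began 45 bases and the CHR core 19 bases before the start. In *Kif23* the NF-Y box began 7 bases before the start and the CHR core at base 3 after it. *Kif22* had 2 matches to each motif, the nearer ones beginning 54 and 17 bases before the start. A match is a run of letters in the reference genome, and binding was not measured in these embryos.

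**Figure D2:**
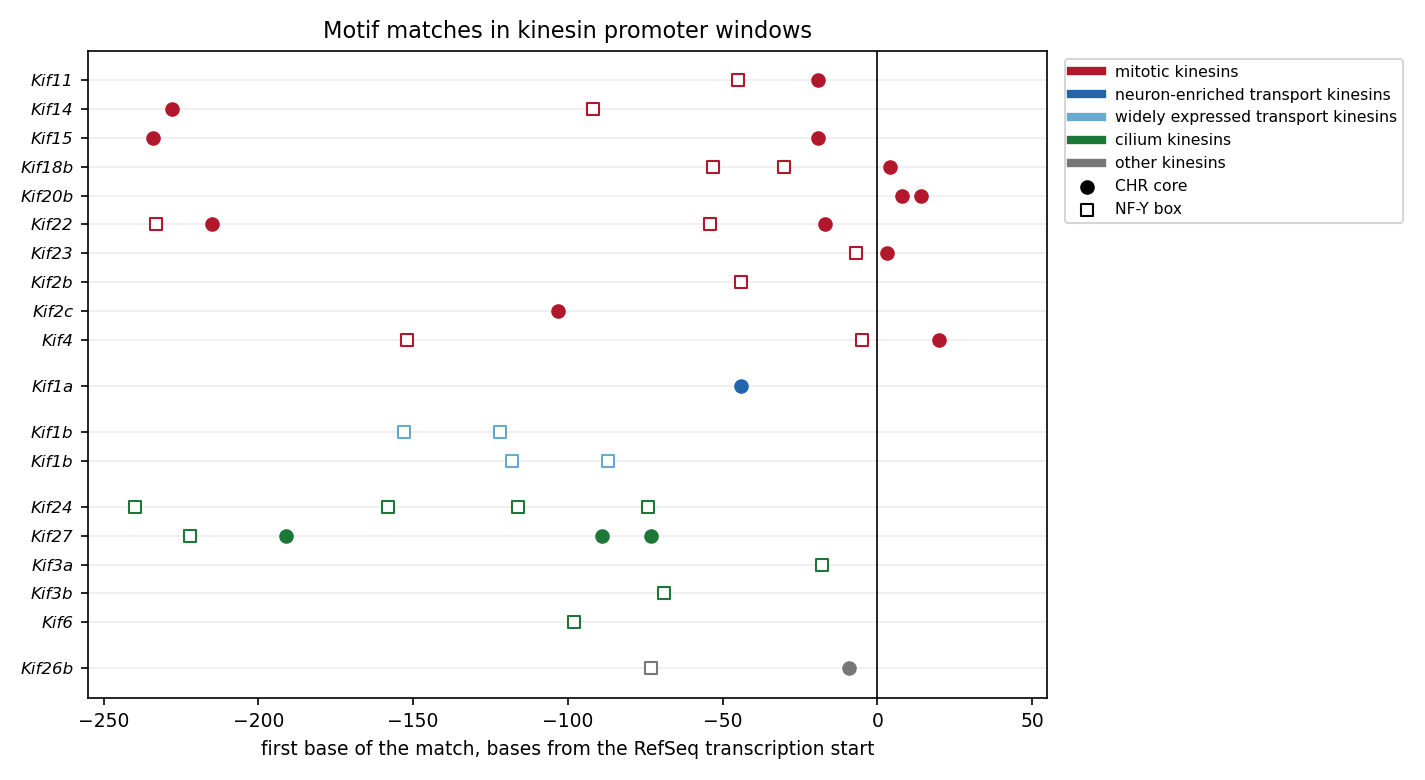
Positions of motif matches in RefSeq promoter windows of kinesins that have at least 1 match, with the distance from the annotated start in bases on the horizontal axis. Filled circles are matches to the CHR core and open squares are matches to the NF-Y box. Circles within 50 bases of the start are found for 7 mitotic kinesins and also for *Kif1a* and *Kif26b*.

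Partners of the mitotic kinesins were described in the same way. Of 28 listed genes of the spindle, kinetochore and midzone, all passed 1 FPKM, 11 were higher and 17 lower in mutant embryos, and 0 differed by as much as 25% of the lower value. Of all loci, 48.2% were higher and 51.8% lower, and 8.84% were higher and 4.98% lower by at least 25%. Their median log2 ratio was -0.020, which became 0.023 when FPKM was rescaled to the same total. *Racgap1*, the partner of *Kif23* in centralspindlin, was at 50.9 and 46.6 FPKM, a log2 ratio of 0.13. Among the 1000 loci nearest in level, 12.4% had a ratio at least as high. The subunits of that complex lay on opposite sides of 0, but both were inside the range of loci of like level. *Prc1*, which recruits *Kif4* to the midzone, was at 41.2 and 40.0 FPKM, and *Tpx2*, which binds *Kif11* on the spindle, was at 56.6 and 55.5 FPKM. *Cenpe*, a kinetochore kinesin under another name, was at 14.5 and 15.7 FPKM, and *Kifc1*, a minus-end motor that draws the poles together, was at 31.2 and 29.7 FPKM. The lowest ratios in the list were those of the checkpoint gene *Mad2l1* (-0.28) and the kinetochore gene *Ndc80* (-0.23). The 10 markers of cycling cells, among them *Top2a*, *Pcna* and *Mki67* (the comparison of the last also marked as failed by the authors' program), had a median log2 ratio of -0.050, with 3 higher and 7 lower.

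The neuron-enriched transport kinesins were less abundant than the mitotic kinesins, at 1.08 to 9.52 FPKM in wildtype and 1.86 to 11.9 FPKM in mutant embryos. *Kif5c*, a heavy chain of kinesin-1, the motor that hauls mitochondria and vesicles down the axon, was at 11.9 FPKM in mutant embryos against 9.52 FPKM in wildtype embryos, a log2 ratio of 0.32. *Kif5a*, the heavy chain most restricted to neurons, was at 1.86 and 1.08 FPKM, a log2 ratio of 0.74. *Kif1a*, which carries synaptic vesicle precursors and dense core vesicles, was at 4.26 and 3.01 FPKM, a log2 ratio of 0.49. *Kif3c*, a kinesin-2 motor of neurons, was at 3.83 and 2.76 FPKM, a log2 ratio of 0.46. *Kif5a*, *Kif1a* and *Kif3c* were 1.73-fold, 1.42-fold and 1.39-fold higher in mutant embryos. *Kif21b*, which moves in dendrites and axons, was at 10.1 and 8.90 FPKM, a log2 ratio of 0.19. *Kif21a*, its relative in axons, was at 7.67 and 6.93 FPKM, a log2 ratio of 0.14. *Kif17*, a dendritic motor, was at 0.0617 and 0.0406 FPKM and did not reach 1 FPKM.

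Loci of low level scattered widely, and each of these genes lay inside the central 95% of the 1000 loci nearest to it. Of those loci, 8.5% had a log2 ratio at least as high as *Kif5a*, 7.40% as *Kif1a*, 8.90% as *Kif3c*, 6.40% as *Kif5c*, 15.8% as *Kif21b* and 22.0% as *Kif21a*. No single neuron-enriched kinesin thus stood apart from genes of like level, and what the 6 share is their direction. Because the groups were drawn up with earlier results of these data known, that shared direction is a description and no independent support. With a pseudocount of 1 FPKM the log2 ratio of *Kif5a* became 0.46, under a fold of 1.5. *Kif3c* shares its locus with *Asxl2* and *1110002L01Rik*, which had log2 ratios of -0.24 and -0.0029.

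**Figure D3:**
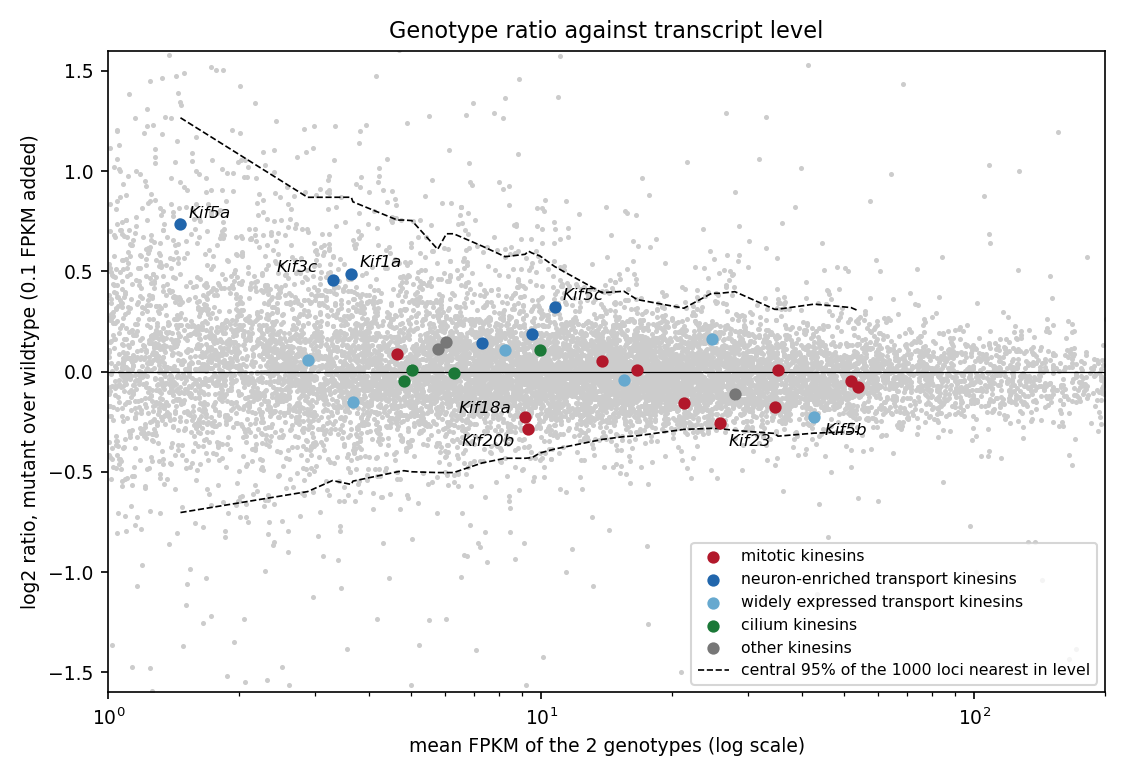
Log2 ratio of mutant over wildtype against the mean FPKM of both genotypes (log axis) for all loci whose mean reached 1 FPKM (grey) and for kinesins (colored by group), with dashed lines around the central 95% of the 1000 loci nearest in level to each kinesin. Some grey loci lie outside the axes, and all 30 kinesins lie between the dashed lines.

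Widely expressed transport kinesins had no common direction. *Kif5b*, the kinesin-1 heavy chain of most cell types, was the most abundant of them at 39.3 FPKM in mutant embryos against 46.0 FPKM in wildtype embryos, a log2 ratio of -0.22. *Kif1b*, which carries mitochondria or synaptic vesicle precursors depending on the isoform, was at 26.1 and 23.3 FPKM, a log2 ratio of 0.16, and is the 1 kinesin for which the authors' program marked its comparison as failed. *Kif1c*, a motor for vesicles and dense core granules, was at 15.3 and 15.8 FPKM. Of this group *Kif5b* was lowest and *Kif1b* highest in ratio. *Kif13a* and *Kif13b*, which move recycling endosomes and other membrane cargo, were at 8.55 and 7.94 FPKM and at 2.94 and 2.82 FPKM. *Kif16b*, an early endosome motor, was at 3.47 and 3.87 FPKM, a log2 ratio of -0.15.

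Within families of related motors, the neuron-enriched member took a larger share of the transcripts in mutant embryos. *Kif5a* and *Kif5c* held 1.90% and 16.8% of the summed FPKM of kinesin-1 heavy chains in wildtype embryos and 3.50% and 22.5% in mutant embryos, whereas *Kif5b* went from 81.3% to 74.0%. The 3 heavy chains summed to 53.1 FPKM in mutant embryos against 56.6 FPKM in wildtype embryos. *Kif1a* held 7.15% of the *Kif1* transcripts in wildtype and 9.34% in mutant embryos, while the widely expressed *Kif1b* went from 55.4% to 57.2% and *Kif1c* from 37.4% to 33.4%. *Kif3c* held 14.8% of the kinesin-2 motor transcripts in wildtype and 18.8% in mutant embryos. Such shares do not depend on the scaling between genotypes. They follow from the same pooled FPKM values as the ratios above, so they restate those ratios and are no separate support. They have no replicate error here.

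**Figure D4:**
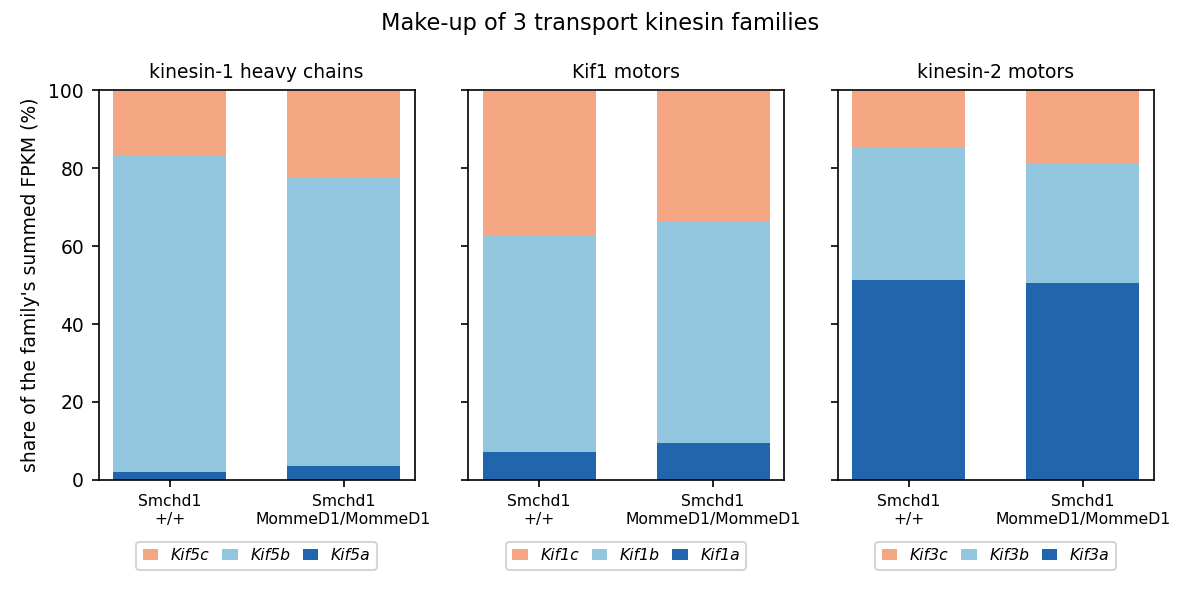
Share of each member in the summed FPKM of its family (%), for Smchd1+/+ and Smchd1MommeD1/MommeD1 embryos, as stacked bars with 1 pooled value per genotype. *Kif5a*, *Kif5c*, *Kif1a* and *Kif3c* take a larger part of the mutant bars, as does the widely expressed *Kif1b*, and *Kif5b* and *Kif1c* take a smaller one.

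Partners of transport kinesins were compared in the same way. Of 31 entries for 30 listed genes, 25 reached a mean of 1 FPKM. Of these, 15 were higher and 10 lower in mutant embryos, where 48.2% of all loci were higher and 51.8% lower, and their median log2 ratio was 0.055. At a fold of at least 1.5, 2 were higher, where 3.51% of all loci were, and 0 lower, where 1.47% of all loci were. *Mapk8ip2*, a scaffold that ties kinesin-1 to JNK signaling, was at 5.74 and 3.32 FPKM, a log2 ratio of 0.77. *Fez1*, an adaptor of kinesin-1 in axon outgrowth, was at 22.5 and 14.2 FPKM, a log2 ratio of 0.66. Of the 1000 loci nearest in level, 0.30% had a ratio at least as high as *Fez1* and 2.40% as *Mapk8ip2*. These adaptors were the 2 listed genes outside the central 95% of loci of like level. *Mapk8ip2* was only just outside, at 0.773 against an upper bound of 0.766. Such a range leaves some loci outside by its definition. *Kidins220*, a kinesin-1 cargo of neurons, was at 8.13 and 6.84 FPKM, a log2 ratio of 0.25, and the authors' program marked its comparison as failed. *Klc1*, the kinesin-1 light chain of neurons, was at 30.7 and 26.7 FPKM, and *Klc2*, the light chain found more widely, was at 9.47 and 9.53 FPKM. *Kifap3*, the cargo-binding subunit of kinesin-2, was at 24.5 and 21.7 FPKM, and *Madd*, which links *Kif1a* and *Kif1b* to synaptic vesicle precursors, was at 3.72 and 3.16 FPKM. The lowest ratios were those of *Klc3* (-0.26), *Rhot1* (-0.12), which anchors mitochondria to kinesin-1, and *Ppfia1* (-0.11).

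Markers of neurons were higher in mutant embryos as well. Of 15 markers 13 reached a mean of 1 FPKM (*Mapt* and *Snap25* did not). All 13 were higher in mutant embryos, where 48.2% of all loci were, with log2 ratios of 0.34 to 1.67 and a median of 1.14. Their summed FPKM was 263.7 in mutant and 124.6 in wildtype embryos, and none was at 0. The share of neurons in the embryos was not measured. In RNA of whole embryos, a change in the number of cells of a type and a change in RNA per cell cannot be told apart. Erythroid and tail bud markers also differed, with medians of 0.97 over 9 and -1.24 over 9 markers, and 10 neural progenitor markers had a median of 0.33. The 10 housekeeping genes had a median of -0.053. The part of these in the kinesin differences was not tested.

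**Figure D5:**
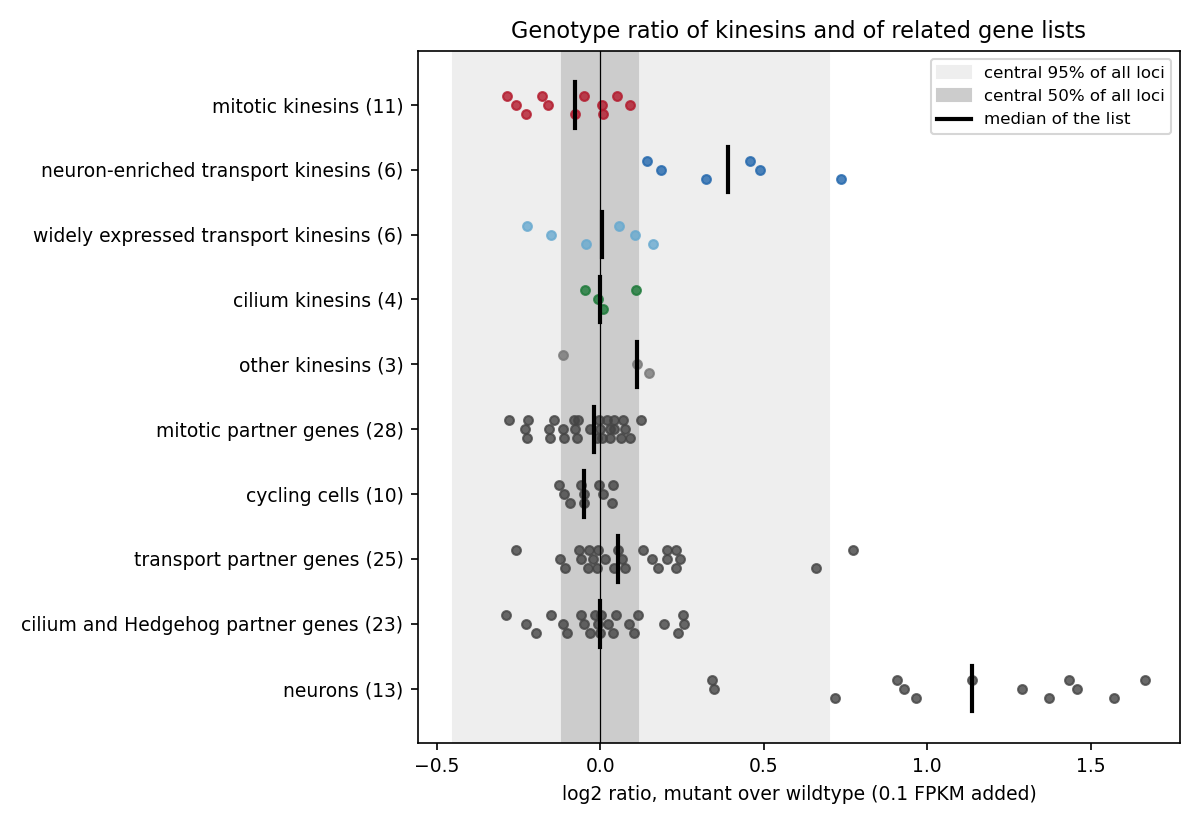
Log2 ratio of mutant over wildtype for each gene whose mean reached 1 FPKM, by list, with the number of entries in brackets, a black bar at the median and grey bands for the central 50% and 95% of all 12463 loci. The band of the central 95% runs from -0.45 to 0.70, neuron-enriched transport kinesins center on 0.39 with *Kif5a* at 0.74 just outside this band, neuron markers center on 1.14, and mitotic kinesins, mitotic partners and cycling markers center near 0.

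The cilium kinesins had ratios near 0. *Kif3a* and *Kif3b*, which together form the kinesin-2 motor of intraflagellar transport, were at 10.3 and 9.54 FPKM and at 6.26 and 6.28 FPKM. *Kif7*, which sits at the cilium tip and regulates Gli factors of the Hedgehog pathway, was at 5.035 FPKM in mutant embryos against 5.005 FPKM in wildtype embryos. *Kif24*, which holds back cilium formation at the mother centriole, was at 4.73 and 4.89 FPKM. The ratios of these 4 lay between -0.047 and 0.11 on the log2 scale. *Kif6*, *Kif9*, *Kif19a* and *Kif27* were below 1 FPKM, at 0.215 to 0.603 FPKM in mutant embryos against 0.195 to 0.466 FPKM in wildtype embryos.

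All 23 listed partners of the cilium and of Hedgehog signaling passed 1 FPKM, 11 higher and 12 lower, where 48.2% of all loci were higher and 51.8% lower. A difference of 25% of the lower value was reached by 0 of them, while 8.84% of all loci were higher and 4.98% lower by that much. Their median log2 ratio was -0.0014, which turned to 0.0062 when ratios were centered on the median locus. *Sufu*, the inhibitor that acts with *Kif7*, was at 23.0 FPKM in both genotypes, and *Gli3* was at 20.7 FPKM in both. The Hedgehog target genes *Ptch1* and *Gli1* had log2 ratios of -0.23 and -0.20. Among the 1000 loci nearest in level, 6.5% and 11.9% had ratios as low, so both were inside the range of loci of like level. The highest ratio was that of *Dync2li1* (0.26) and the lowest that of *Dync2h1* (-0.29), both subunits of the dynein that returns cargo from the cilium tip.

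Among the other kinesins, *Kif2a*, which shortens microtubules at spindle poles and in growing axons, was at 26.9 FPKM in mutant embryos against 29.1 FPKM in wildtype embryos. *Kif26a* and *Kif26b*, unusual kinesins that bind microtubules without moving along them by ATP hydrolysis, were at 6.35 and 5.72 FPKM and at 5.99 and 5.53 FPKM. These 3 had log2 ratios of -0.11 to 0.15. *Kif12* was at 0.167 and 0.236 FPKM, and the pseudogene *Kif4-ps* was listed at 0 in both genotypes.

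In the authors' table, 7 kinesins share their locus with another gene. The libraries do not keep the strand, so reads from exons that overlap on opposite strands cannot be assigned by strand. Whether exons of these genes overlap was not checked. *Kif20a* shares its locus with *Brd8* and *Cdc23*, whose log2 ratios were -0.12 and -0.024. *Kif18a*, on chr2:109092300-109341746, shares it with *Mettl15*, which had a ratio of 0.23 where *Kif18a* had -0.23. *Kif2a* shares its locus with *Dimt1* (-0.28), *Kif24* with *Ubap1* (0.088), *Kif7* with *5730590G19Rik* (-0.027) and *Kif19a* with *Btbd17* (0.76).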

How the data were processed

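RNA-seq was done on 6 male embryos at E9.5, grouped by the genotype in their labels. Per the study's text, the authors mapped single-end reads of 100 bp from nondirectional libraries to MM10, and the processing notes name TopHat2 2.0.6, Bowtie2 2.0.2, Cufflinks 2.0.2 and Cuffdiff 2.0.2. The deposited values used here are FPKM, which the authors computed as 1 value per genotype. The table's other columns hold the authors' own fold changes, test statistics, p-values and q-values, which were not used.

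Log2 ratios were computed with a pseudocount of 0.1 FPKM over loci whose mean reached 1 FPKM. A list was described by its counts and median beside those of all loci. Embryos were taken as replicates by their labels only, but the pooled values allow no test, interval or leave-one-out to be computed from them, and the authors' own test was left out. The members and lists were chosen with earlier results of these data known. All kinesins whose mean reached 1 FPKM are named, with the lowest and highest partners and direct subunits or regulators. *Map2* was matched through its older symbol *Mtap2*. Loci without a symbol held 36.8% of mutant and 39.3% of wildtype FPKM. Locus starts are counted from 1. Alternatives were other pseudocounts, filters, scalings, folds and list memberships. Steps were tested on simulated data. Python 3.11.15, numpy 2.4.6, pandas 2.3.3 and matplotlib 3.10.9 were used.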

Additional observations from a re-analysis of the deposited data

How the results depend on the processing

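No paired analysis was possible because the table holds 1 pooled value per genotype, and for the same reason no embryo could be left out. Of 89 alternatives, 77 kept the direction and stayed within 0.1 on the log2 scale for medians or within 1.5 times for counts. The median of the mitotic kinesins was below 0 in each of the 9 alternatives run for it. A pseudocount cannot change the sign of a ratio, so the alternatives for it could not have reversed this median. Housekeeping genes and cycling markers also had medians a little below 0, at -0.053 and -0.050. With the neuron-enriched members alone, the transport median was 0.39 and the mitotic median lay lower by a difference of -0.47, and with the widely expressed members alone these were 0.0065 and -0.084. The lower mitotic median relative to transport kinesins thus rests mostly on the neuron-enriched members. The number of kinesins at least 1.5-fold higher was 0 with a pseudocount of 1 FPKM, with means of 5 FPKM or more and at a fold of 2, and 4 at a difference of 25%. Medians near 0 changed sign with the scaling. Rescaling to the same total FPKM gave 0.023 for mitotic partners and 0.042 for cilium and Hedgehog partners, centering on the median locus gave 0.0062 for the latter, and rescaling over named loci of 200 bp or longer, which was chosen after seeing the data, gave -0.014 for cilium kinesins. Of the 30 kinesins, 26 kept their direction in every alternative for pseudocount, filter and scaling that they entered.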

Other observations

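The same promoter letters were counted in the windows of the other lists, as a description only. Some genes have more than 1 window, so windows are not independent. The 27 windows of mitotic partners came from 24 genes, the 36 of transport partners from 25 and the 13 of neuron markers from 9. TTTGAA was found in 19 of 27 windows of mitotic partner genes, in 3 of 36 windows of transport partner genes and in 1 of 19 windows of cilium and Hedgehog partner genes, against 17.9% of all windows. CCAAT was found in 18 of 27, 13 of 36 and 12 of 19 of these windows, in 9 of 9 windows of cycling markers, in 8 of 13 of neuron markers, in 6 of 9 of neural progenitor markers, in 4 of 7 of tail bud markers, in 2 of 6 of erythroid markers and in 3 of 8 of housekeeping genes, against 37.4% of all windows. The neuron windows with CCAAT were those of *Dcx*, *Elavl3*, *Elavl4*, *Isl1* and *Tubb3*. Among kinesins outside the mitotic group, *Kif26b* and *Kif27* held both motifs. *Btbd17*, which shares the locus of *Kif19a*, was at 6.62 and 3.88 FPKM, and 2.20% of the 1000 loci nearest in level had a ratio at least as high.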
